A study of Homo sapiens with 12 samples.

Results

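The genes described here are 5 caspases (CASP2, CASP6, CASP8, CASP9 and CASP10) and 3 inhibitors of apoptosis proteins, or IAPs (BIRC2, BIRC3 and XIAP). They were picked out by symbol, and each of the 8 symbols matched 1 gene of the 19973 in the deposited table. Their mRNA was measured by RNA-seq in H460 and A549, which are established human non-small cell lung cancer (NSCLC) lines. Cells of each line, labelled WT, were either left non-treated (control) or treated for 48 h with 10 µM ISP-I, and each of the 4 groups has 3 libraries. ISP-I is isovalerylspiramycin I, a main component of the macrolide antibiotic carrimycin. Each line carries an inactivating mutation of KEAP1, the adaptor that targets NRF2 for degradation, so the control and the ISP-I libraries share this background. No non-cancer cell is among the groups, and the methods speak of replicates for the RNA-seq without saying that the 3 libraries of a group came from separate cultures. A general statement there refers mean values to independent experiments, but does not tie these libraries to it, so the p-values measure the spread between these libraries, which may be technical.

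Caspases are proteases made as inactive precursors. Initiator caspases are switched on by assembly on a platform: CASP8 and CASP10 at death receptors through the adaptor FADD, CASP9 on the apoptosome built by APAF1 and cytochrome c, and CASP2 on the PIDDosome, while CASP6 is counted among the executioners that cut cell proteins such as lamins. XIAP binds and blocks active caspases directly, whereas BIRC2 (cIAP1) and BIRC3 (cIAP2) are ubiquitin ligases that act mainly on RIPK1 in TNF receptor complexes and on MAP3K14 (NIK), the kinase of non-canonical NF-kB signalling. Caspase activity depends on such assembly or on cleavage of the protein, and mRNA measures neither.

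Several of these genes are neighbours in the genome (hg38). BIRC3 (chr11:102317450-102339403) and BIRC2 (chr11:102347211-102378670) lie on the same strand with 7807 bases between them. CASP10 (chr2:201182898-201229406) is followed after 4036 bases by CASP8 (chr2:201233443-201287711), and CFLAR, which encodes the CASP8 inhibitor FLIP, ends 6210 bases before CASP10. The others lie on chromosomes that hold no other gene of the set, with CASP2 at chr7:143288215-143307696, CASP6 at chr4:109688622-109703583, CASP9 at chr1:15490832-15526534 and XIAP at chrX:123859724-123913976.

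RefSeq (GRCh38.p14) gave 14 promoter windows, each running from 250 bases before a transcription start to just past it, for 7 of the 8 genes. BIRC3 had the widest range of levels of the 8 genes, so the 250 bases before its start (chr11:102317234-102317483, plus strand) are shown, with the matches to the kappaB motif, the element bound by NF-kB, in capitals.
BIRC3: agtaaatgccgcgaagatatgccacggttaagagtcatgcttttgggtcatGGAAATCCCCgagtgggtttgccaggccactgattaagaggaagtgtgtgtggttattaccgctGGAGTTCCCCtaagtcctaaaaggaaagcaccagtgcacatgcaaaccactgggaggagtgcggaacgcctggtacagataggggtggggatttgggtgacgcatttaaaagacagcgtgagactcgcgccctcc

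The 2 matches lay at -199 to -190 and at -135 to -126 from the start. Of the 35116 RefSeq windows of the same length, 11.3% held at least 1 kappaB match on either strand and 2.04% held 2 or more. BIRC2, the neighbour, had no kappaB match but held the CRE motif TGACGTCA, present in 1.85% of windows, at a site that 2 of its windows share. CASP8 held the AP-1 motif TGANTCA, present in 7.71% of windows, in 2 windows, and CASP2 had 1 kappaB match. These sites are shown in 30 bases each, with the match in capitals, to compare the genes at the letters that were searched.
BIRC2, CRE, chr11:102347196-102347225: gccgggcgcgcTGACGTCAtcgtgcgtcag
CASP8, AP-1, chr2:201258022-201258051: ttcttgttcgagTGAGTCAtctctgttctg
CASP8, AP-1, chr2:201260463-201260492: ctctagtgtttgTGACTCAggagtttcgaa
CASP2, kappaB, chr7:143289467-143289496: gctctttgaaGGGGCGTCCCtaatggaata

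The FOXO motif GTAAACA (3.42% of windows) and the E2F motif TTTNNCGC (6.89%), searched on both strands, had no match in these 14 windows. A match describes letters in a window and is not a measured binding site.

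The libraries held 14225849 to 17874422 reads on genes. Within their groups, A549 control library 3 and H460 ISP-I libraries 2 and 3 stood apart: their median absolute log2 difference from the other libraries of the group was 0.183, 0.201 and 0.227, against 0.063 to 0.125 for the other 9. The share of reads on mitochondrial genes was lower with ISP-I, at 4.51% to 4.82% in H460 control libraries against 2.43% to 2.79% with ISP-I, and at 3.77% to 4.12% against 3.16% to 3.34% in A549. Its part in the results below was not tested. Of 5 epithelial markers, KRT8 was the highest in each group (194 FPKM in H460 control and 650 FPKM in A549 control), while H460 control was listed at 0 for CDH1 and averaged 0.0473 FPKM for EPCAM. The 4 leukocyte markers averaged under 0.1 FPKM in each group.

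Some markers moved with ISP-I. The 5 epithelial markers summed to 356 to 432 FPKM in H460 control and 327 to 415 FPKM with ISP-I, where KRT18 was higher (log2 change 0.90, adjusted p = 0.00128) and KRT19 lower (-1.08, adjusted p = 0.00025). In A549 their sum went from 924 to 1252 FPKM in control to 628 to 659 FPKM with ISP-I, with KRT8 (-0.99, adjusted p = 0.000126) and CDH1 (-1.75, adjusted p = 2.74e-06) among those lower. The 4 fibroblast markers summed to 1.44 to 1.92 FPKM in H460 control and 2.87 to 3.36 FPKM with ISP-I, and to 0.724 to 1.10 FPKM and 1.004 to 1.28 FPKM in A549. PDGFRB was higher in H460 (0.543 to 2.40 FPKM, adjusted p = 1.22e-05) and in A549 (0.0194 to 0.278 FPKM, adjusted p = 0.000738), while COL1A2 was listed at 0 in the controls of both lines. The 3 endothelial markers summed to at most 0.0993 FPKM in any H460 library and 0.161 FPKM in any A549 control library, and to 0.274 to 0.368 FPKM in A549 with ISP-I, where VWF was higher (0.303 FPKM, adjusted p = 0.000583). The part of these markers in the results below was not tested.

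In H460 cells, the mRNA of all 5 caspases was lower and that of all 3 IAPs higher with ISP-I than in control. The caspases fell from a summed level of 34.0 to 35.6 FPKM (fragments per kilobase of gene, scaled to the reads of the library) in the 3 control libraries to 12.1 to 13.1 FPKM with ISP-I. The IAPs went from 14.9 to 18.5 FPKM up to 34.6 to 60.3 FPKM. In bulk RNA, fewer cells of a kind and less RNA per cell cannot be told apart. The test was limma on the log2(FPKM + 1) scale. P-values were adjusted by Benjamini-Hochberg over all genes tested, and an adjusted p under 0.05 was taken as passing. Fold changes on this scale understate the change of low genes, so ratios of mean FPKM are given beside them. Of the 13423 genes tested in H460, 41.5% passed as lower and 27.6% as higher, beside 5 of 5 caspases lower and 3 of 3 IAPs higher. The median log2 change was -0.99 over the caspases, 1.30 over the IAPs and -0.15 over all genes tested. The 3 control and 3 ISP-I libraries did not overlap for any of the 8 genes, as was so for 43.1% of all genes in the lower and 29.6% in the higher direction.

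**Figure D1:**
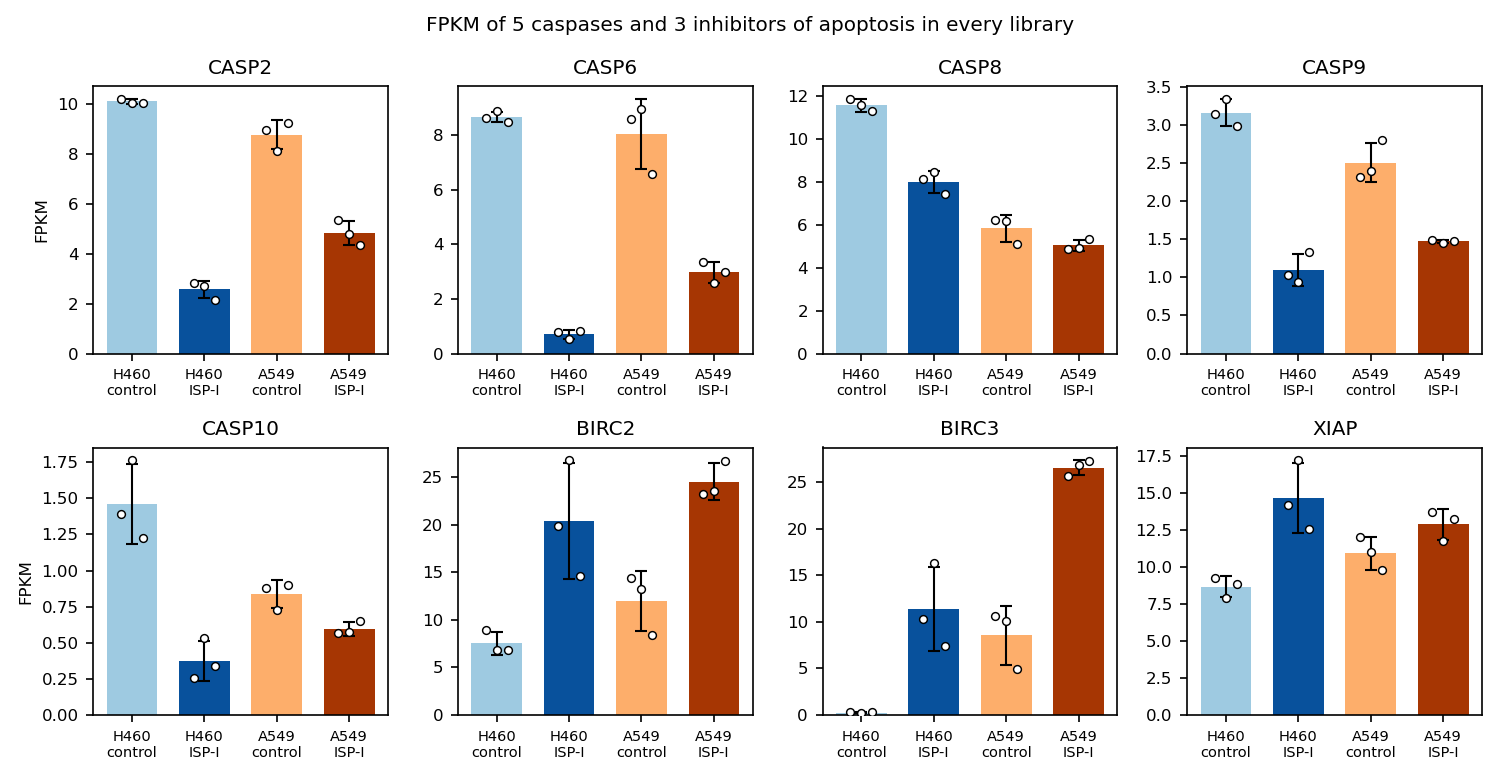
FPKM of the 8 genes in the 12 libraries, with points for libraries and bars for the mean and SD of each group of 3. In H460 no ISP-I library overlapped a control library for any of the 8 genes, and in A549 CASP8 and XIAP overlapped.

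CASP6, the executioner of the set, had the largest drop in H460. Its control libraries held 8.62, 8.88 and 8.50 FPKM and its ISP-I libraries 0.777, 0.525 and 0.832 FPKM. The groups lay far apart, and the ISP-I values rest on 17 to 27 reads. The means differed 12.2-fold, and the log2 change was -2.50 (SE 0.113, adjusted p = 7.59e-07).

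CASP2, the PIDDosome caspase, held 10.2, 10.0 and 10.0 FPKM in control and 2.82, 2.71 and 2.16 FPKM with ISP-I. Its control libraries were nearly equal and all ISP-I libraries were below them. The mean was 3.94-fold lower, with a log2 change of -1.64 (SE 0.116, adjusted p = 5.36e-06).

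CASP9, the apoptosome caspase, held 3.15, 3.35 and 2.99 FPKM in control against 1.03, 0.934 and 1.33 FPKM with ISP-I. The groups did not overlap, and the mean was 2.88-fold lower (log2 change -0.99, SE 0.109, adjusted p = 6.34e-05).

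The death receptor caspases also fell. CASP8 was the highest caspase in H460 control, at 11.9, 11.5 and 11.3 FPKM, and held 8.10, 8.43 and 7.42 FPKM with ISP-I. All 3 treated libraries were lower, by the smallest margin of the 5 caspases (1.45-fold, log2 change -0.48, SE 0.105, adjusted p = 0.00324). After median-of-ratios scaling, which moved the median change of all genes to 0.01, CASP8 no longer passed (log2 change -0.23, adjusted p = 0.0917). It also did not pass with limma voom on recovered reads (-0.24, adjusted p = 0.108). CASP10, its neighbour and close relative, was the lowest caspase in H460 control, at 1.39, 1.76 and 1.22 FPKM, and held 0.258, 0.531 and 0.338 FPKM with ISP-I. Those groups rest on 138 to 203 and on 35 to 67 reads. Its mean was 3.89-fold lower (log2 change -0.84, SE 0.112, adjusted p = 0.000202).

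BIRC3 had the largest rise. It was nearly silent in H460 control, at 0.314, 0.193 and 0.304 FPKM (22 to 34 reads), and reached 10.3, 16.3 and 7.42 FPKM with ISP-I. The treated libraries spread widely, yet all lay far above control. The means differed 42.0-fold, and the log2 change was 3.22 (SE 0.232, adjusted p = 6.04e-06). BIRC2, the neighbour with the CRE match, held 8.91, 6.87 and 6.81 FPKM in control and 19.9, 26.8 and 14.6 FPKM with ISP-I. The order of the treated libraries was the same as for BIRC3, with library 2 the highest and library 3 the lowest. XIAP, on another chromosome, had that order too (14.2, 17.2 and 12.6 FPKM), so it is not particular to these neighbours. Libraries 2 and 3 were also those of this group that stood apart above. The BIRC2 mean was 2.71-fold higher (log2 change 1.30, SE 0.208, adjusted p = 0.000588).

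XIAP, the direct caspase inhibitor, held 9.28, 7.88 and 8.84 FPKM in control and 14.2, 17.2 and 12.6 FPKM with ISP-I. The groups did not overlap, and this was the smallest rise of the 3 IAPs (1.69-fold, log2 change 0.69, SE 0.137, adjusted p = 0.00206). Reads shared with processed copies of XIAP elsewhere in the genome may not be told apart, which was not checked, so its level is less certain. A differentially expressed gene (DEG) was defined by adding a fold change over 2 on the log2(FPKM + 1) scale to the test. By this rule CASP2 and CASP6 were lower and BIRC2 and BIRC3 higher, beside 15.2% and 10.5% of all genes tested. CASP9 and CASP10 stayed under that limit on this scale, though their mean FPKM was over 2-fold lower. With 0.1 in place of 1 added to FPKM both were called, at log2 changes of -1.46 and -1.74.

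In A549 cells the log2 change of all 8 genes had the same sign as in H460, and 6 of the 8 passed. Summed caspase mRNA went from 24.6 to 26.9 FPKM in control to 14.3 to 15.6 FPKM with ISP-I, and summed IAP mRNA from 23.1 to 37.0 FPKM up to 62.1 to 67.2 FPKM. Of the caspases 4 of 5 passed as lower, beside 27.0% of the 13705 genes tested, and of the IAPs 2 of 3 passed as higher, beside 30.5%. Control and ISP-I libraries did not overlap for those 6 genes, beside 30.7% of all genes in the lower and 34.8% in the higher direction. The median log2 change was -0.50 over the caspases, 1.001 over the IAPs and 0.02 over all genes tested.

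**Figure D2:**
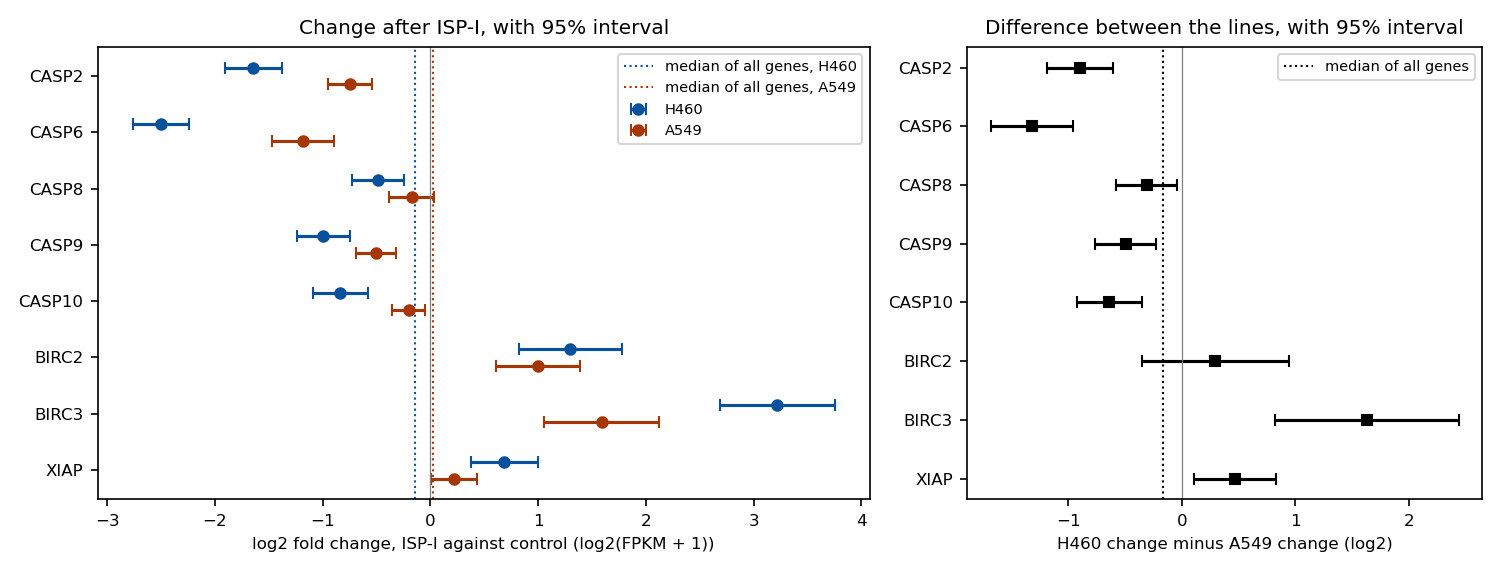
Log2 change of each gene with ISP-I on the log2(FPKM + 1) scale, with bars for the 95% confidence interval from limma, in H460 and A549. CASP6 fell by 2.50 in H460 and 1.18 in A549, and BIRC3 rose by 3.22 in H460 and 1.59 in A549.

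CASP6 was again the caspase with the largest drop, from 8.61, 8.96 and 6.59 FPKM in control to 3.34, 2.59 and 2.98 FPKM with ISP-I. Control library 3 was the lowest of its group but stayed above the treated libraries. The mean was 2.71-fold lower (log2 change -1.18, SE 0.124, adjusted p = 9.61e-05).

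CASP2 went from 8.93, 8.13 and 9.24 FPKM to 5.33, 4.77 and 4.36 FPKM, with no overlap (1.82-fold lower, log2 change -0.75, SE 0.0889, adjusted p = 0.000192). CASP9 went from 2.32, 2.40 and 2.80 FPKM to 1.49, 1.45 and 1.48 FPKM, with treated libraries that were nearly equal. Its mean was 1.70-fold lower (log2 change -0.50, SE 0.0803, adjusted p = 0.000956).

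CASP8 did not pass in A549. It held 6.19, 6.14 and 5.11 FPKM in control and 4.85, 4.92 and 5.31 FPKM with ISP-I. The groups overlapped through control library 3, and the log2 change was -0.17 (95% interval -0.38 to 0.03, adjusted p = 0.128). Without that library it passed (log2 change -0.25, adjusted p = 0.00738). CASP10 held 0.881, 0.727 and 0.902 FPKM in control and 0.565, 0.572 and 0.653 FPKM with ISP-I, from 81 to 101 and from 64 to 71 reads. The groups did not overlap and it passed (1.40-fold lower, log2 change -0.20, SE 0.0675, adjusted p = 0.0328), but not without control library 1 (adjusted p = 0.0914) or 3 (0.0689) or ISP-I library 1 (0.0944) or 2 (0.0937). Nor did it pass in 1 limma fit of all 12 libraries (adjusted p = 0.088).

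BIRC3 was already expressed in A549 control, at 10.7, 10.1 and 4.90 FPKM, and held 25.7, 26.8 and 27.2 FPKM with ISP-I. Control library 3 was well below the other controls, and all treated libraries were above all controls. The means differed 3.10-fold (log2 change 1.59, SE 0.232, adjusted p = 0.000571), and the log2 change without control library 3 was 1.28. BIRC2 went from 14.4, 13.2 and 8.44 FPKM to 23.2, 23.6 and 26.7 FPKM. Library 3 was again the lowest control. The mean was 2.04-fold higher (log2 change 1.001, SE 0.170, adjusted p = 0.0013), and the log2 change without control library 3 was 0.79. Without ISP-I library 3 it was 0.94, so in each of these fits BIRC2 was under the 2-fold limit.

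XIAP held 11.99, 11.0 and 9.77 FPKM in A549 control and 13.7, 11.7 and 13.2 FPKM with ISP-I. The groups overlapped, and it did not pass (log2 change 0.22, 95% interval 0.0048 to 0.44, adjusted p = 0.0748). Without control library 1 the adjusted p was 0.0468. By the DEG rule CASP6 was lower and BIRC2 and BIRC3 higher, beside 3.51% and 4.2% of all genes tested.

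The difference between the lines was tested directly, as the ISP-I change in H460 minus that in A549. It passed for 7 of the 8 genes, beside 53.3% of all genes tested. All 5 caspases were lower in this difference and BIRC3 and XIAP higher, beside 34.7% and 18.6% of the 13953 genes tested. The median difference was -0.64 over the caspases, 0.47 over the IAPs and -0.16 over all genes tested. Past 2-fold on the log2(FPKM + 1) scale were CASP6, lower, and BIRC3, higher, beside 10.1% and 5.93% of all genes. It was largest for BIRC3 (log2 difference 1.63, adjusted p = 0.00285) and CASP6 (-1.32, adjusted p = 3.71e-05). CASP2 differed by -0.90 (adjusted p = 0.000148), CASP10 by -0.64 (0.00139), CASP9 by -0.49 (0.0051) and CASP8 by -0.31 (0.0487). XIAP differed by 0.47 (adjusted p = 0.0319). For BIRC2 a difference was not detectable (0.30, 95% interval -0.35 to 0.95, adjusted p = 0.418). The log2(FPKM + 1) scale also understates these differences for low genes. With 0.1 in place of 1 added to FPKM, BIRC3 differed by 3.19, CASP6 by -2.05 and CASP10 by -1.32. With limma voom on recovered reads the differences were 3.94, -1.86 and -1.20. The calls for CASP8 and CASP9 were lost after median-of-ratios scaling (adjusted p = 0.852 and 0.0641). With 1 library left out, CASP8 kept its call only without H460 ISP-I library 2 or A549 control library 1 (adjusted p from 0.0404 to 0.113 over the 12 fits). XIAP lost its call without H460 control library 2, H460 ISP-I library 2, A549 control library 1 or 2, or A549 ISP-I library 2 or 3 (from 0.00727 to 0.0832). The H460 and A549 changes share their libraries with this test. In the study's viability assay at 48 h, 10 µM was above the inhibitory concentration (IC50) of H460 and below that of A549. The part of this in the differences between the lines was not tested.

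Before treatment the lines differed most in BIRC3, which was 31.7-fold lower in H460 control than in A549 control (log2 difference -2.85, adjusted p = 1.3e-05). BIRC2 (-0.59, adjusted p = 0.0239) and XIAP (-0.30, adjusted p = 0.0325) were also lower in H460. CASP8 was 1.99-fold higher in H460 (log2 difference 0.88, adjusted p = 6.74e-05), and CASP10 (0.42, adjusted p = 0.00642) and CASP9 (0.25, adjusted p = 0.0495) were higher too. CASP2 (0.19, adjusted p = 0.0871) and CASP6 (0.10, adjusted p = 0.461) did not pass. BIRC2 and XIAP each lost the call without H460 control library 2 or 3 or A549 control library 1 or 2 (adjusted p up to 0.0879 and 0.128). CASP9 kept it only without A549 control library 3 (up to 0.165), and CASP2 passed without that library (0.0485). These 3 higher and 3 lower genes stand beside 28.6% and 31.6% of the 13532 genes tested. By the DEG rule only BIRC3 was called of the 8 genes, as lower, beside 8.78% of all genes lower and 5.64% higher. The 2 groups of control libraries did not overlap for 4 genes that were higher in H460 and 2 that were lower, beside 31.4% and 33.4%. The A549 and H460 controls used here also serve in the ISP-I comparisons.

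The order of the levels in FPKM, which is per length, changed with ISP-I. In H460 control CASP8 led, followed by CASP2, and BIRC3 was last, while CASP6, XIAP and BIRC2 overlapped each other. In H460 with ISP-I the 3 IAPs came first by mean, in the order BIRC2, XIAP and BIRC3, each overlapping its neighbour, and CASP8, next in order, overlapped BIRC3. In A549 control BIRC2 and XIAP led by mean and overlapped, but BIRC3 (4.90 to 10.7 FPKM) overlapped both. CASP2 and CASP6 overlapped BIRC2 there as well. In A549 with ISP-I BIRC3 and BIRC2 led and overlapped, both above XIAP, and CASP10 was last.

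Ratios within a library do not depend on its scaling. BIRC3 to BIRC2 was 0.0280 to 0.0446 in H460 control and 0.507 to 0.609 with ISP-I, and 0.580 to 0.766 in A549 control and 1.02 to 1.14 with ISP-I. The neighbours thus rose unequally in each line, with no overlap. CASP10 to CASP8 went from 0.109 to 0.153 in H460 control to 0.0319 to 0.0629 with ISP-I, while in A549 its ranges of 0.118 to 0.176 and 0.116 to 0.123 overlapped. The next ratios were chosen after their values were seen. XIAP to CASP9, a pair of inhibitor and target, was 2.35 to 2.95 in H460 control and 9.46 to 18.4 with ISP-I, and 3.49 to 5.17 and 8.07 to 9.23 in A549. CASP8 to CFLAR, a pair of caspase and inhibitor encoded in the same cluster, was 6.91 to 7.97 in H460 control and 2.11 to 2.46 with ISP-I, and 1.15 to 1.31 and 0.905 to 1.001 in A549.

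**Figure D3:**
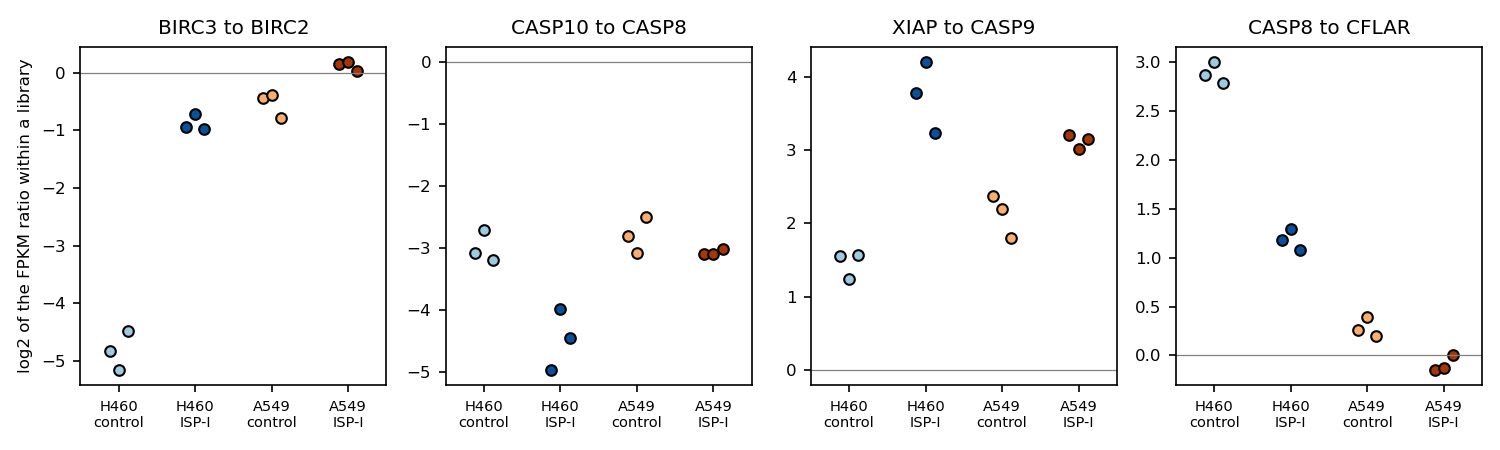
Log2 of the ratio of FPKM between genes within each library, with points for the 12 libraries by group. BIRC3 to BIRC2 was -5.16 to -4.49 on this log2 scale in H460 control and -0.98 to -0.72 with ISP-I.

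Among 51 listed genes that act with these 8, 44 were tested in each line. H460 had 13 passing as higher and 16 as lower, while A549 had 15 and 12. These counts are near the shares over all genes tested, which in H460 were 27.6% (passed as higher) and 41.5% (passed as lower). The same shares for A549 were 30.5% and 27.0%, and the counts for the single lists below stand beside the same shares. On the mitochondrial side, APAF1, the scaffold that activates CASP9, fell in H460 from a mean of 2.97 to 0.874 FPKM (log2 change -1.09, adjusted p = 3.61e-05) and in A549 from 3.90 to 2.24 FPKM (-0.60, adjusted p = 0.000501). CYCS, which encodes cytochrome c, did not pass in H460 (0.05, adjusted p = 0.835) and rose in A549 (0.61, adjusted p = 0.00145). PIDD1, the PIDDosome scaffold for CASP2, fell in H460 (-0.58, adjusted p = 0.0027) and had a log2 change of -0.20 in A549 (adjusted p = 0.0706). CRADD, the adaptor that links PIDD1 to CASP2, had a log2 change of -0.05 in H460 (adjusted p = 0.728) and rose from 2.46 to 3.72 FPKM in A549 (0.45, adjusted p = 0.00105).

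Among the 8 death receptor, adaptor and FLIP genes, H460 had 2 that rose and 2 that fell, and A549 had 4 and 2. TNFRSF1A, the TNF receptor, fell from 79.6 to 12.8 FPKM in H460 (log2 change -2.55, adjusted p = 8.96e-07) and from 111 to 44.01 FPKM in A549 (-1.31, adjusted p = 5.94e-06). FAS, a death receptor, did not pass in H460 (0.07, adjusted p = 0.638) and rose from 1.82 to 5.70 FPKM in A549 (1.25, adjusted p = 1.02e-05). TRADD, the adaptor of the TNF receptor, went from 19.5 to 5.49 FPKM in H460 (-1.71, adjusted p = 0.000339) and from 11.2 to 7.16 FPKM in A549 (-0.57, adjusted p = 0.00528). CFLAR, named after its values were seen, rose in H460 (0.81, adjusted p = 0.00011) and did not pass in A549 (0.14, adjusted p = 0.162). The rest of this list was also named after its values were seen. The death receptor gene TNFRSF10A rose in A549 (0.58, adjusted p = 0.000253), as did TNFRSF10B (0.63, adjusted p = 8.55e-05). The adaptor gene FADD was higher there too (0.66, adjusted p = 7.81e-05). For H460, TNFRSF10A passed as higher (0.43, adjusted p = 0.00771). TNFRSF10B (0.29, adjusted p = 0.0542) and FADD (0.36, adjusted p = 0.171) did not pass there. RIPK1 passed in neither line (-0.05 in each).

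TRAF1, a partner of the BIRC2 and BIRC3 proteins in TNF receptor complexes, rose from 0.661 to 34.8 FPKM in H460 (log2 change 4.43, adjusted p = 1.08e-07) and from 3.04 to 28.1 FPKM in A549 (2.85, adjusted p = 1.63e-07). MAP3K14 rose in H460 (1.77, adjusted p = 6.21e-06) and fell in A549 (-0.26, adjusted p = 0.0139). RBCK1, a subunit of the linear ubiquitin ligase, moved in opposite directions, from 29.98 to 7.16 FPKM in H460 (-1.93, adjusted p = 4.79e-06) and from 34.0 to 46.8 FPKM in A549 (0.45, adjusted p = 0.00126). All 5 NF-kB subunit genes passed as higher in H460, and 2 of 5 in A549. RELB went from 1.78 to 52.3 FPKM in H460 (4.26, adjusted p = 2.46e-07) and from 12.9 to 14.3 FPKM in A549 (0.13, adjusted p = 0.121). NFKB2, the precursor processed in non-canonical signalling, went from 17.1 to 162 FPKM in H460 (3.18, adjusted p = 3.08e-07) and from 32.0 to 59.1 FPKM in A549 (0.86, adjusted p = 1.22e-05). REL rose from 0.565 to 6.90 FPKM in H460 (2.31, adjusted p = 9.25e-06) and had a log2 change of -0.22 in A549 (adjusted p = 0.0536).

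Of the 3 other BIR genes tested, 2 fell in each line. BIRC5 (survivin), which also serves chromosome segregation, fell from 78.4 to 23.8 FPKM in H460 (log2 change -1.69, adjusted p = 3.54e-05) and from 83.0 to 39.5 FPKM in A549 (-1.04, adjusted p = 8.75e-05). BIRC7 had a log2 change of -1.51 in H460 (adjusted p = 6.53e-06), and its A549 change of -0.56 passed too (adjusted p = 0.0347). Of the IAP antagonists, HTRA2, a mitochondrial protease, fell in H460 (-1.48, adjusted p = 2.97e-05) and had a log2 change of -0.04 in A549 (adjusted p = 0.765). GSPT1 was higher in H460 (0.43, adjusted p = 0.0131), with an A549 change of 0.14 (adjusted p = 0.174). DIABLO (Smac), which displaces IAPs from caspases, had low FPKM throughout, with means of 0.416 and 0.791 FPKM in H460 (0.33, adjusted p = 0.00824) and 0.634 and 0.402 FPKM in A549 (-0.22, adjusted p = 0.0493). Its values rest on 35 to 101 reads, and overlap of its exons with other genes was not checked.

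CASP4, an inflammatory caspase, rose from 7.41 to 10.03 FPKM in H460 (0.40, adjusted p = 0.0239) and from 1.47 to 3.19 FPKM in A549 (0.76, adjusted p = 0.000271). CASP1, another of that class, averaged only 0.281 and 0.0975 FPKM in H460 (-0.22, adjusted p = 0.0274). The list of 10 caspase substrates, which also holds DFFB, gave 5 lower and 1 higher calls for H460 and 3 lower and 2 higher for A549. The lower calls stand beside 41.5% of all genes in H460 and 27.0% in A549. PARP1, a DNA repair enzyme cut by caspases, fell from 48.4 to 7.83 FPKM in H460 (-2.49, adjusted p = 8.2e-07) and from 19.9 to 11.8 FPKM in A549 (-0.70, adjusted p = 4.83e-05). DFFB, the nuclease freed to cut DNA when caspases cut its inhibitor DFFA, had a log2 change of -1.98 in H460 (adjusted p = 1.05e-06), while that in A549 was -0.23 (adjusted p = 0.0485). BID, which links CASP8 to mitochondria once cut, went from 9.25 to 3.96 FPKM in H460 (-1.05, adjusted p = 0.000184) and from 12.7 to 6.78 FPKM in A549 (-0.81, adjusted p = 0.000139).

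**Figure D4:**
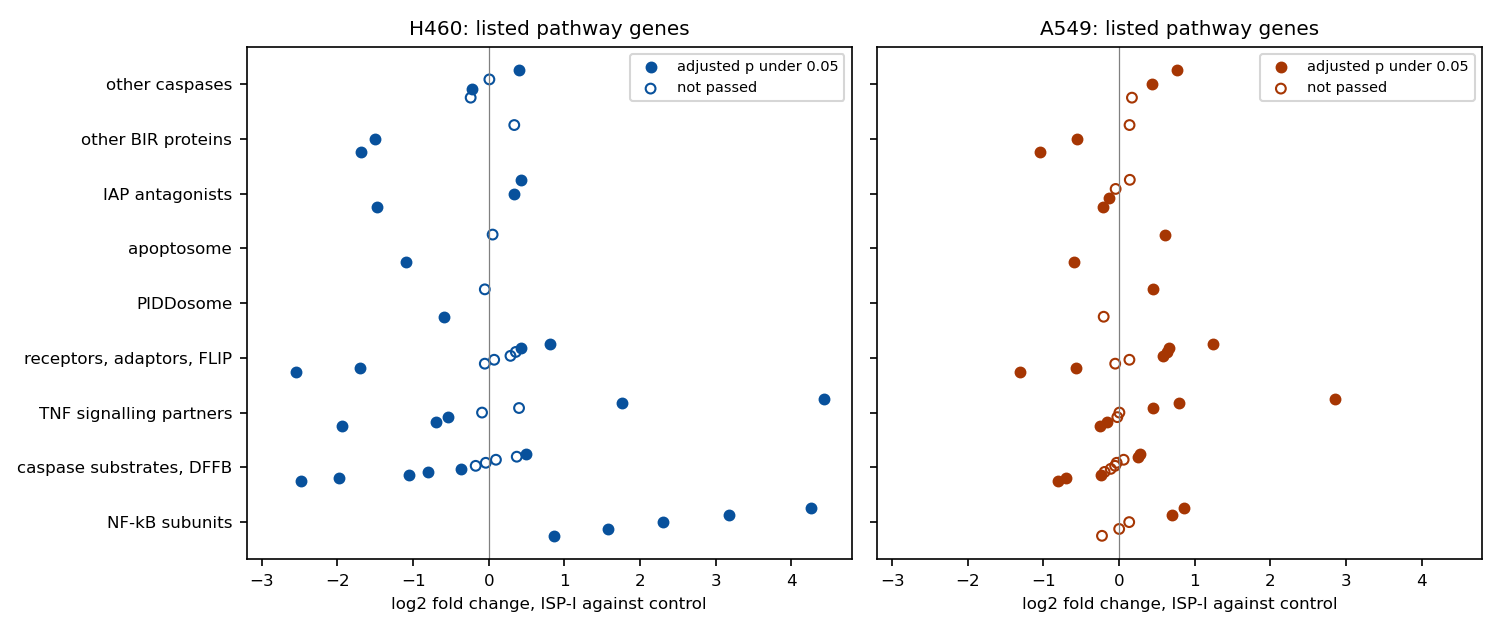
Log2 change with ISP-I of the listed pathway genes by list, in H460 and A549, with filled points for an adjusted p under 0.05 by limma and open points for genes that did not pass. The 5 NF-kB subunit genes were all higher in H460, and RELB rose there by 4.26.

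Across the 12 libraries, the genes whose log2(FPKM + 1) followed each gene most closely, 3 for each, were sought among the 10593 genes that averaged 1 FPKM or more. For CASP2 these were CCDC102A (Pearson r 0.994), SOGA1 and GTSE1, for CASP6 ACACB (0.992), PTGFRN and CIT, and for CASP8 PAPSS2 (0.990), PTPRD and BMP6. CASP9 was followed by PTPA (0.995), PGAM1 and QARS1, and CASP10 by IFT172 (0.967), TRAIP and UBE2G2. Of the IAPs, BIRC2 was followed by MIER1 (0.992), SWAP70 and ZNF770, BIRC3 by RNF19A (0.991), EPS8 and SYNJ2, and XIAP by BICD1 (0.9895), VCPIP1 and REST. The points fall into 4 groups, so these values describe shared group levels.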

How the data were processed

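RNA was sequenced as paired-end reads from 12 libraries. Per the labels and the study's methods, the authors used FastQC to filter reads, HISAT2 to map them to hg38 and HTSeq 0.9.1 to count genes, and deposited FPKM. The annotation version and the strand setting are not given in the sources used here. CASP6 shares 98 exon bases with MCUB and CASP9 101 with CELA2B on the opposite strand (GENCODE), so those reads may not be told apart. The same holds for BIRC3, which shares 126 with a long non-coding RNA gene on the opposite strand. CASP8 shares 343 with such a gene on its own strand, where a strand setting would not separate the reads. The deposited gene length in bases gave back whole reads from FPKM in 100.0% of values (tolerance 0.01 reads). 4 broken lines were left out.

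Columns were assigned to groups by line and treatment, and libraries are numbered in column order. limma 3.58.1 with trend (R 4.3.3) was fitted to log2(FPKM + 1) for genes averaging 0.1 FPKM or more. Each line was fitted on its own 6 libraries, the difference between lines on all 12, and the untreated lines on the control libraries, all with Benjamini-Hochberg adjustment. The unadjusted FPKM were kept as the main scale. The code was tested on simulated data. Alternatives were 0.1 as the pseudocount, a filter at a mean of 1 FPKM, the unfiltered table, median-of-ratios scaling, quantile normalization, limma voom on the recovered reads, 1 fit of all 12 libraries and each library left out. Tables used pandas 2.3.3 with numpy 2.4.6 in Python 3.11.15.

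The genes, the lists and the rule for naming pathway genes (the 3 of each list with the largest absolute change in either line among those that passed, or all of a list of up to 3) were chosen with earlier results of these data known. BIRC8 and CASP12 were not analysed here, and not every gene that the rule names is reported here.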

Additional observations from a re-analysis of the deposited data

Results flagged for a closer look

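The ISP-I change differed between H460 and A549, by the test of that difference in limma with Benjamini-Hochberg adjustment, for 7 of the 8 genes, beside 53.3% of all genes tested. On the log2(FPKM + 1) scale, as H460 minus A549, the difference was -0.90 for CASP2, -1.32 for CASP6, -0.31 for CASP8, -0.49 for CASP9 and -0.64 for CASP10, each with a larger drop in H460. It was 1.63 for BIRC3 and 0.47 for XIAP, each with a larger rise in H460. Of these calls, that for CASP8 was lost with median-of-ratios scaling (-0.03, adjusted p = 0.852) and in 10 of 12 fits with a library left out. That for CASP9 was lost with median-of-ratios scaling (adjusted p = 0.0641), quantile normalization (0.17) and voom (0.0946), and that for XIAP in 6 of 12 fits with a library left out. The log2(FPKM + 1) scale understates differences of low genes. With a pseudocount of 0.1 the difference was 3.19 for BIRC3, -2.05 for CASP6 and -1.32 for CASP10.

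Of the 44 listed pathway genes tested, 14 also passed this test with a difference of over 2-fold, 6 as higher and 8 as lower, beside 5.93% and 10.1% of all genes tested. The difference was -1.24 for TNFRSF1A, -1.14 for TRADD and -1.17 for FAS among receptors and adaptors, and -1.43 for HTRA2. It was 1.58 for TRAF1, 2.02 for MAP3K14 and -2.39 for RBCK1, which encodes a subunit of the linear ubiquitin ligase. It was -1.79 for PARP1 and -1.08 for DFFA, which are caspase substrates, and -1.75 for DFFB, the nuclease that DFFA inhibits. Among NF-kB subunit genes it was 1.58 for NFKB1, 2.31 for NFKB2, 4.12 for RELB and 2.53 for REL. Groups of 3 libraries were not tested for outlying samples.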

How the results depend on the processing

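No paired analysis was possible because the columns carry no replicate number of the labels. Among single genes, 101 of 103 alternative values in H460 kept their direction and side of the threshold, as did 96 of 103 in A549, 119 of 143 for the difference between lines and 75 of 96 for the untreated lines. In H460 the members passing as lower went from 5 to 4 with median-of-ratios scaling and 4 with voom, CASP8 losing its call in each. Those called DEG and lower in H460 went from 2 to 4 with a pseudocount of 0.1 and 4 with voom. In A549 those called DEG and higher went from 2 to 1 with median-of-ratios scaling and 1 with quantile normalization, and ranged from 1 to 2 with a library left out (1 without control library 3 or ISP-I library 3). For the difference between lines, those passing as lower went from 5 to 3 with median-of-ratios scaling, quantile normalization or voom. Those passing as higher went from 2 to 1 with no filter, and ranged from 1 to 2 with a library left out, XIAP losing its call in 6 of 12 such fits. Those past 2-fold and lower went from 1 to 3 with a pseudocount of 0.1 and 2 with voom. For untreated lines, those passing as lower went from 3 to 1 with no filter and ranged from 1 to 3 with a library left out, and CASP8 was past 2-fold and higher with voom (1 gene against 0). For CASP6, which did not pass between untreated lines, the log2 difference ranged from -0.018 (without A549 control library 3, a reversed sign) to 0.18 with a library left out. The causes were not tested. CASP10 was not tested in H460, A549 or the difference with a mean of at least 1 FPKM. Low read counts limit CASP6 and CASP10 with ISP-I and BIRC3 in H460 control.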
